A study of Bos taurus with 2 samples.

Results

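Genes of the glutathione, thioredoxin and antioxidant enzyme systems were examined in pools of in vitro fertilized (IVF) bovine embryos. They were chosen by gene symbol, as peroxiredoxins (PRDX), glutathione peroxidases (GPX), glutathione transferases (GST and MGST), symbols beginning with TXN, glutaredoxins (GLRX), superoxide dismutases (SOD) and single genes such as GCLC, GSR, CAT and NFE2L2. This gave 65 genes of 21209 symbols. One pool was CDKN1C-siRNA-injected, that is, of embryos injected as zygotes with a small interfering RNA against CDKN1C, an imprinted inhibitor of the cell cycle. It was set against a sham-injected pool, whose embryos were punctured by the needle without delivery of siRNA. Both were IVF embryos, and the protocols describe collection at the blastocyst stage, without giving the dose or day for the sequenced pools. Each group is 1 library of amplified RNA from pooled embryos, so no difference has a replicate, an error or a p-value. Values are FPKM, the fragments assigned to a gene scaled to its length and to the sequencing of the pool. FPKM holds no read counts, and the depth behind each value is unknown.

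The targeted gene CDKN1C was 14.6 FPKM in injected embryos and 49.5 FPKM in sham embryos. The trophectoderm genes KRT8 and KRT18 and the epiblast gene POU5F1 were present in both pools, at 1610, 5389 and 56.3 FPKM in the injected pool and 5760, 11245 and 170 FPKM in the sham pool. Their lists went both ways, since the injected pool was higher for 6 of 11 trophectoderm markers and lower for 5, and had 2 of 8 epiblast markers higher and 6 lower. IFNT2, an interferon tau gene of the trophectoderm, was 135 FPKM in injected embryos and 31.1 FPKM in sham embryos. Of 13 cumulus and granulosa markers, 8 were lower and 2 higher in the injected pool, with a sum of 16.9 FPKM there and 31.0 FPKM in the sham pool, and AMH, FOXL2 and PTX3 were listed at 0 in both. The 8 fibroblast markers summed to 25.98 FPKM in injected embryos and 2.84 FPKM in sham embryos, with the injected pool higher for 5 and lower for 2, and COL1A1 at 0 in both. VIM, at 18.5 FPKM in injected embryos and 1.46 FPKM in sham embryos, and LUM, at 4.77 FPKM against 0.138 FPKM, carried most of that sum, and 5 of the 8 were under 1 FPKM in both pools. The part of these cells in the results was not tested. In pooled embryos, fewer cells of a type cannot be told apart from less RNA per cell.

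Aerobic cells form superoxide, which superoxide dismutases turn into hydrogen peroxide. Peroxiredoxins, glutathione peroxidases and catalase then reduce the peroxide. The peroxiredoxins draw electrons from thioredoxin and the glutathione peroxidases from glutathione, and both carriers are recharged by reductases that use NADPH. The transcription factor NRF2, encoded by NFE2L2 and held in check by KEAP1, drives many of these genes. Cultured bovine embryos are known for their sensitivity to oxygen in the medium.

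As a set, the antioxidant genes lay close to the rest of the transcriptome. Differences are log2 ratios, injected to sham, of FPKM plus 1, which understates the change of low genes, and were read where FPKM averaged 1 or more over the pools. Whether a gene is past or within 2-fold is read on this log2 scale throughout, while a fold printed with a decimal is the plain ratio of FPKM, which is larger for low genes. Of 44 members with that mean, 7 were lower by 2-fold or more in the injected pool, or 15.9%, against 15.7% of all 7984 genes. Another 3 were at least 2-fold higher, or 6.82%, against 4.92% of all genes. None reached 4-fold. The median log2 difference was -0.07 for the members and -0.17 for all genes.

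The genes at least 2-fold lower were PRDX5, GPX1, TXN2, GPX4, GSTP1, PRDX2 and GSTT1, and those at least 2-fold higher were TXNDC9, TXNRD1 and SOD1. Setting the total FPKM of the pools equal gave all genes a median of 0.16 on the log2 scale. The members then divided into 2 lower and 5 higher in place of 7 and 3, beside 7.48% lower and 11.9% higher of all genes. The 2 still lower were PRDX5 and GPX1, and GCLC and GSR joined the higher genes. On the main scale the members nearest to 2-fold were GSTT1 at -1.14 and TXNDC5 at -0.89 on the lower side, and SOD1 at 1.17 and GCLC at 0.88 on the higher side.

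**Figure D1:**
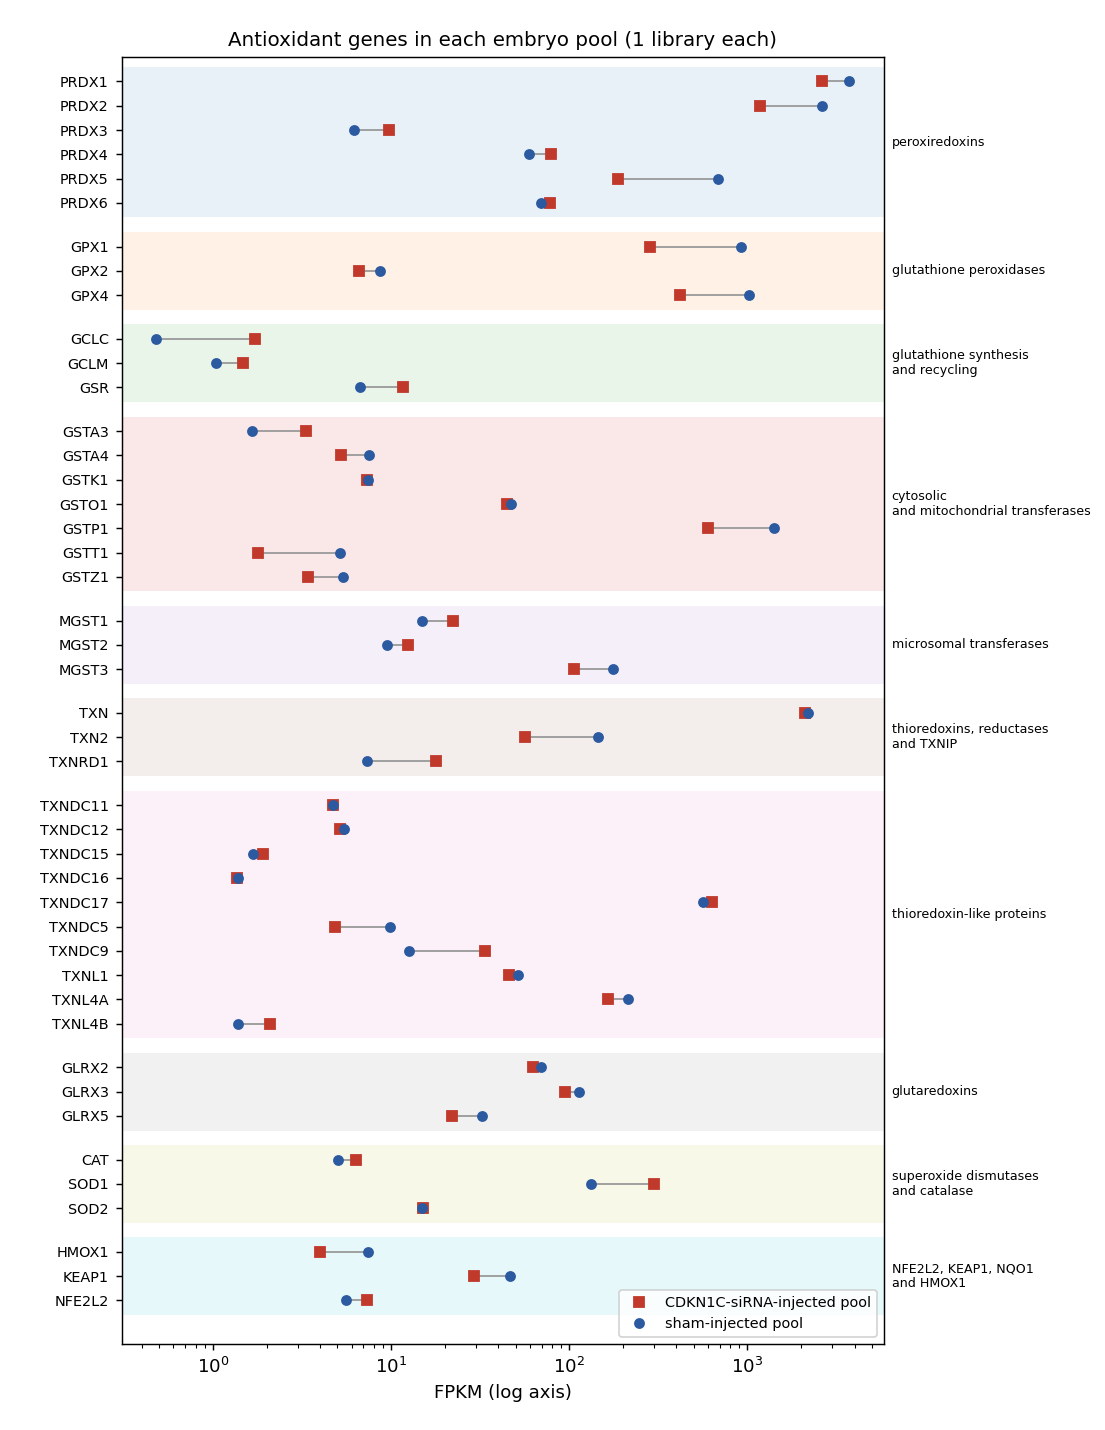
FPKM (horizontal, log axis) of the 44 antioxidant genes averaging 1 FPKM or more, by role (shaded bands), in the CDKN1C-siRNA-injected pool (red squares) and the sham-injected pool (blue circles), 1 library each. The widest gaps with the injected pool at the left are those of PRDX5, GPX1 and GSTT1, while GCLC, TXNDC9, TXNRD1 and SOD1 have the injected pool well to the right.

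Together the 65 genes summed to 9310 FPKM in injected embryos and 14457 FPKM in sham embryos, 0.886% and 1.04% of all FPKM. A few abundant members carried this sum. PRDX1, TXN, PRDX2, GSTP1, GPX4 and GPX1, the 6 with the highest means, held 77.4% of it in the injected pool and 82.3% in the sham pool. PRDX1 ranked 1 in both pools. TXN ranked 2 in the injected pool and 3 in the sham pool, and PRDX2 held these places the other way round. SOD1 ranked 7 in the injected pool and 12 in the sham pool, whereas GPX1 ranked 8 in the injected pool and 6 in the sham pool.

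The 6 peroxiredoxins divided evenly. PRDX1, the main cytosolic enzyme of the family, was 2630 FPKM in injected embryos and 3738 FPKM in sham embryos. PRDX2, its close cytosolic relative, was 1174 FPKM in injected embryos and 2609 FPKM in sham embryos, 2.22-fold lower. PRDX5, found in mitochondria, peroxisomes and cytosol, was 189 FPKM in injected embryos and 681 FPKM in sham embryos, 3.60-fold lower and, on the log2 scale, the lowest of all members at -1.84. These 3 were lower in the injected pool, and the other 3 were higher. The mitochondrial enzyme PRDX3 was 9.73 FPKM in injected embryos and 6.17 FPKM in sham embryos. PRDX4, of the endoplasmic reticulum, was 78.7 FPKM in injected embryos and 59.6 FPKM in sham embryos. PRDX6, which uses glutathione and also acts as a phospholipase, was 77.8 FPKM in injected embryos and 69.1 FPKM in sham embryos. Each of the 6 kept its direction under every scaling, filter, pseudocount and loess fit tried. PRDX1 to PRDX6 summed to 4160 FPKM in injected embryos and 7162 FPKM in sham embryos, so the direction of the sum was set by the abundant cytosolic members. A ratio within a pool does not depend on scaling between pools. By that measure PRDX1 was 13.9 times PRDX5 in the injected pool and 5.49 times PRDX5 in the sham pool. PRDX4 is the member on the X chromosome, and XIST, which silences an X chromosome in females, was 2.02 FPKM in injected embryos and 0.398 FPKM in sham embryos. The part of embryo sex in the PRDX4 values was not tested.

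The 2 abundant glutathione peroxidases, both selenoproteins, were lower in the injected pool. GPX1, the cytosolic enzyme that reduces hydrogen peroxide, was 282 FPKM in injected embryos and 917 FPKM in sham embryos, 3.25-fold lower. GPX4, which reduces lipid peroxides in membranes and protects cells from ferroptosis, was 420 FPKM in injected embryos and 1026 FPKM in sham embryos, 2.45-fold lower. GPX2, known from the gut epithelium, was 6.58 FPKM in injected embryos and 8.73 FPKM in sham embryos, and it was higher in the injected pool after a loess fit on locus length. GPX8, of the endoplasmic reticulum, had a mean just under 1 FPKM, with 1.68 FPKM in injected embryos and 0.276 FPKM in sham embryos, and its location is shared with CDC20B. GPX3, the plasma enzyme, and GPX5, known from the epididymis, were listed at 0 in both pools.

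Of the genes that make and recycle glutathione, 3 averaged 1 FPKM or more. GSR, the reductase that regenerates glutathione, was 11.7 FPKM in injected embryos and 6.68 FPKM in sham embryos. GCLC, the catalytic subunit of the rate-limiting ligase, was 1.73 FPKM in injected embryos and 0.481 FPKM in sham embryos. GCLM, its modifier subunit, was 1.47 FPKM in injected embryos and 1.03 FPKM in sham embryos. These 3 were higher under every setting tried, though none was 2-fold higher on the main scale, and GCLM and GCLC drop out where a mean of 5 FPKM is required. The log2 difference of GCLC was 1.08 with the same total FPKM. GCLC passed the filter with a mean of 1.11 FPKM, through its value in the injected pool. GSS, which completes glutathione synthesis, did not pass and was lower in the injected pool, at 0.470 FPKM in injected embryos and 1.13 FPKM in sham embryos.

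Among the soluble glutathione transferases, which couple glutathione to reactive compounds, GSTP1 held most of the FPKM. GSTP1, the pi class enzyme, was 602 FPKM in injected embryos and 1412 FPKM in sham embryos, 2.34-fold lower. GSTT1, of the theta class, was 1.79 FPKM in injected embryos and 5.15 FPKM in sham embryos, 2.88-fold lower. On the log2 scale both were past 2-fold, and none of the other 5 averaging 1 FPKM or more was. These 2 of 7 are 28.6%, against 15.7% of all genes lower by as much. GSTZ1, which also acts in tyrosine breakdown, was 3.41 FPKM in injected embryos and 5.37 FPKM in sham embryos. GSTA4, which clears the lipid peroxidation product hydroxynonenal, was 5.23 FPKM in injected embryos and 7.52 FPKM in sham embryos. GSTK1, the kappa class enzyme of mitochondria and peroxisomes, was 7.31 FPKM in injected embryos and 7.46 FPKM in sham embryos. These 3 lay within 2-fold, and the small difference of GSTK1 changed sign with the same total FPKM.

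Some transferases have near-identical copies whose reads the authors' counting may have divided, so their values are uncertain. GSTO1, of the omega class, was 44.7 FPKM in injected embryos and 47.3 FPKM in sham embryos over 2 loci on chromosome 26. The locus with more signal was 37.3 FPKM in injected embryos and 36.4 FPKM in sham embryos, and the other was 7.47 FPKM against 10.9 FPKM, so the loci differed in direction. GSTA3, an alpha class enzyme that also takes part in steroid synthesis, was 3.33 FPKM in injected embryos and 1.66 FPKM in sham embryos over 2 loci on chromosome 23, 2.003-fold higher as a plain ratio. Its log2 difference was 0.70, and 1.33 after the fit on gene density. The first GSTA3 locus was 1.77 FPKM in injected embryos and 0.396 FPKM in sham embryos, and the second was 1.56 FPKM against 1.27 FPKM. GSTM1, of the mu class, had 3 loci on chromosome 3 and summed to 1.27 FPKM in injected embryos and 0.666 FPKM in sham embryos, with a mean under 1 FPKM. GSTM3 was 0.608 FPKM in injected embryos and 1.04 FPKM in sham embryos.

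The membrane-bound MGST enzymes differed in direction. MGST3, the most abundant of them, was 107 FPKM in injected embryos and 177 FPKM in sham embryos. MGST1, which protects membranes from peroxidation, was 22.3 FPKM in injected embryos and 14.9 FPKM in sham embryos. MGST2, which can make leukotriene C4, was 12.4 FPKM in injected embryos and 9.48 FPKM in sham embryos. All 3 lay within 2-fold.

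In the thioredoxin system the carrier of the cytosol and its reductase parted. TXN, the cytosolic thioredoxin, was 2099 FPKM in injected embryos and 2196 FPKM in sham embryos, a log2 difference of -0.06 that was 0.33 with the same total FPKM, 0.31 after the fit on locus length and 0.10 with the median of all genes set to 0. TXNRD1, the cytosolic reductase and a selenoprotein, was 17.96 FPKM in injected embryos and 7.32 FPKM in sham embryos, 2.45-fold higher. There were thus 117 FPKM of TXN for each FPKM of TXNRD1 in the injected pool and 300 in the sham pool. TXNRD1 shares its location in the files with EID3. The mitochondrial thioredoxin TXN2 was 56.7 FPKM in injected embryos and 145 FPKM in sham embryos, 2.56-fold lower. Its reductase TXNRD2 had a mean under 1 FPKM, with 0.191 FPKM in injected embryos and 1.02 FPKM in sham embryos. TXN2 and TXNRD2 were both lower in the injected pool, while TXNRD1 was higher. Of 6 genes assigned here to mitochondria with a mean of at least 1 FPKM, TXN2 was the one past 2-fold. That is 16.7% lower, against 15.7% of all genes, and none higher, against 4.92%. The median log2 difference of the 6 was -0.09. PRDX5, found in mitochondria and elsewhere, was not assigned to them and was also past 2-fold lower.

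**Figure D2:**
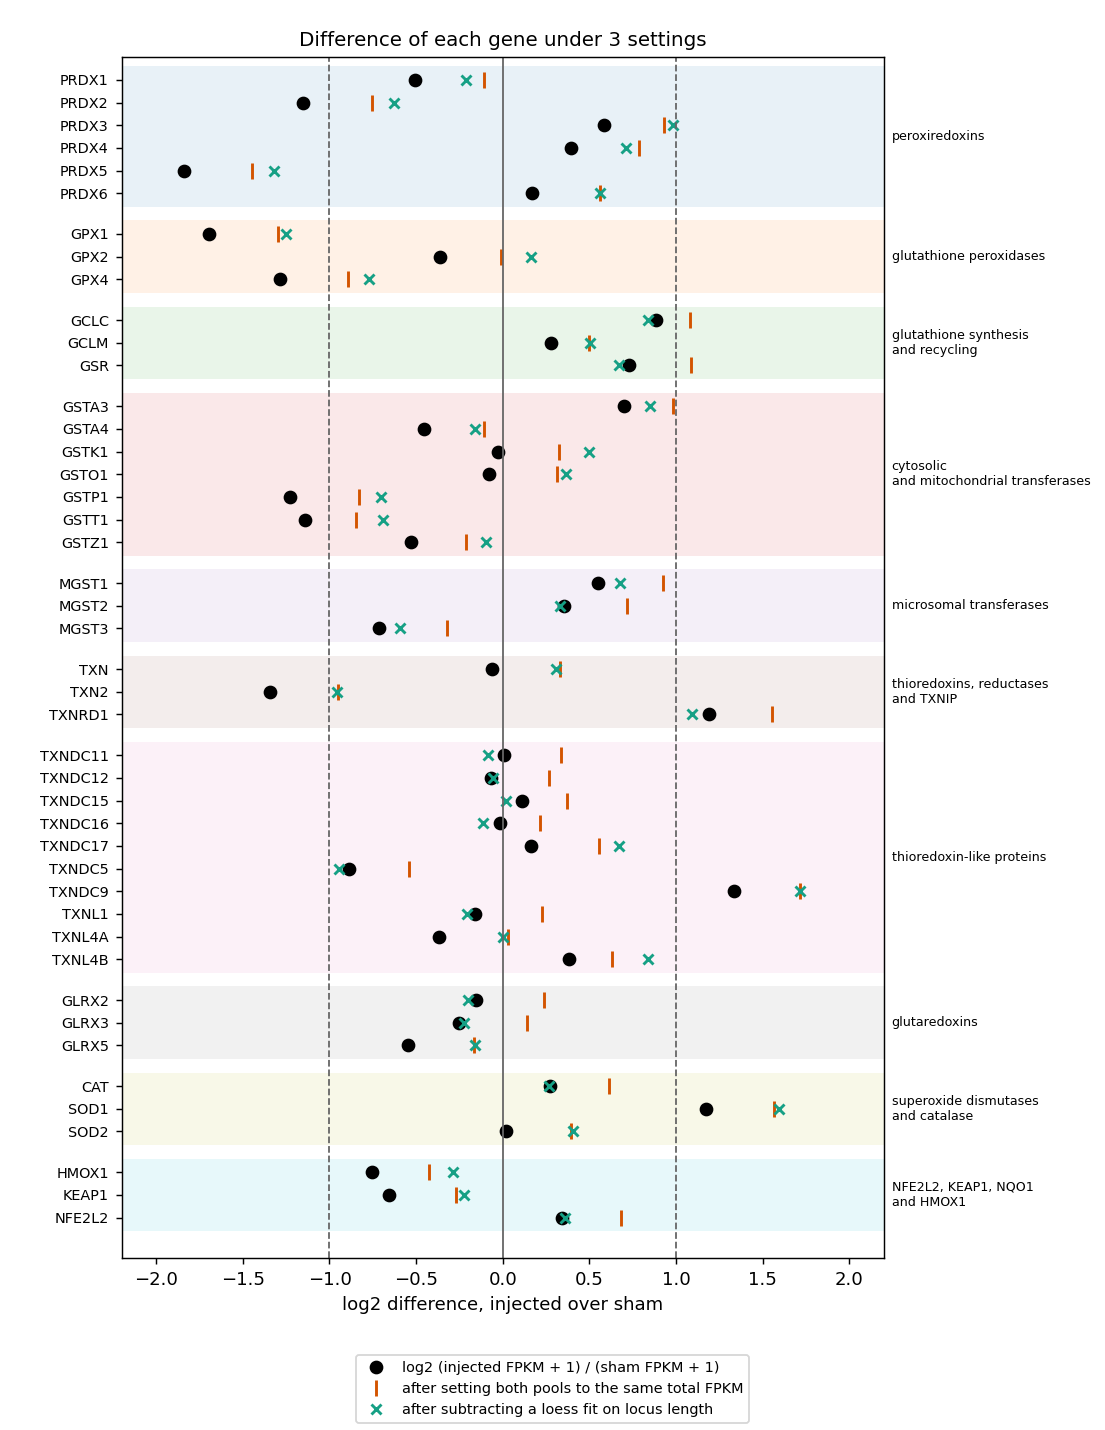
Log2 difference of injected over sham (horizontal) for the 44 genes by role, as FPKM plus 1 (black dots), after setting both pools to the same total FPKM (orange ticks) and after subtracting a loess fit on locus length (green crosses). Equality is the solid line, and 2-fold is dashed. PRDX5 and GPX1 lie beyond the left dashed line under all 3 settings, and SOD1, TXNRD1 and TXNDC9 beyond the right one.

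Proteins with a thioredoxin fold but other tasks mostly lay near equality. TXNDC17, which works with TXNRD1 to reduce disulfides, was 631 FPKM in injected embryos and 564 FPKM in sham embryos and ranked 4 among the members of the injected pool and 8 in the sham pool. TXNL4A, a component of the spliceosome, was 166 FPKM in injected embryos and 214 FPKM in sham embryos. TXNL1, bound to the proteasome, was 45.9 FPKM in injected embryos and 51.5 FPKM in sham embryos. TXNDC9, a modulator of the chaperonin that folds actin and tubulin, stood apart with 33.5 FPKM in injected embryos and 12.7 FPKM in sham embryos. At 2.64-fold higher and a log2 difference of 1.34, TXNDC9 was the highest of all members on that scale. TXNL4B, another splicing protein, was 2.10 FPKM in injected embryos and 1.38 FPKM in sham embryos.

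The endoplasmic reticulum proteins of this group were low. TXNDC5, a disulfide isomerase, was 4.85 FPKM in injected embryos and 9.83 FPKM in sham embryos, 2.03-fold lower as a plain ratio, with a log2 difference of -0.89. It was past 2-fold at -1.004 with a pseudocount of 0.1 and at -1.07 after the fit on gene density. TXNDC12, also an oxidoreductase of that compartment, was 5.15 FPKM in injected embryos and 5.43 FPKM in sham embryos. TXNDC11, known for the maturation of dual oxidases, was 4.74 FPKM in injected embryos and 4.71 FPKM in sham embryos. Apart from TXNDC5 these values were close. TXNDC15 was 1.90 FPKM in injected embryos and 1.68 FPKM in sham embryos, and TXNDC16 was 1.36 FPKM against 1.39 FPKM. TXNDC5 shares its location with BMP6, TXNDC12 with KTI12 and TXNDC15 with PCBD2. Of 9 genes with products in the endoplasmic reticulum or secreted, PRDX4 and the MGST genes included, none was past 2-fold in either direction. Of all genes, 15.7% were lower and 4.92% higher by as much, so the count over 9 genes is not read as a result. The median log2 difference of the 9 was 0.01.

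The 3 glutaredoxins were slightly lower in the injected pool, but GLRX2 and GLRX3 were higher with the same total FPKM, and GLRX2 was 0.01 on the log2 scale with the median of all genes set to 0. GLRX3, a cytosolic carrier of iron-sulfur clusters, was 94.9 FPKM in injected embryos and 113 FPKM in sham embryos. GLRX2, a mitochondrial form, was 62.4 FPKM in injected embryos and 69.5 FPKM in sham embryos. GLRX5, needed to build iron-sulfur clusters in mitochondria, was 21.8 FPKM in injected embryos and 32.4 FPKM in sham embryos. GLRX2 shares its location with TROVE2 and GLRX3 with MIR2397.

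Of the enzymes that remove superoxide, the cytosolic and the mitochondrial form differed. SOD1, the copper-zinc enzyme of the cytosol, was 298 FPKM in injected embryos and 132 FPKM in sham embryos, 2.26-fold higher. SOD2, the manganese enzyme of mitochondria, was 15.1 FPKM in injected embryos and 14.8 FPKM in sham embryos. CAT, the catalase of peroxisomes, was 6.34 FPKM in injected embryos and 5.07 FPKM in sham embryos. SOD1 was thus 19.8 times SOD2 in the injected pool and 8.87 times SOD2 in the sham pool. Set against the peroxidase GPX1, SOD1 was 1.06 times its level in the injected pool and 0.144 times in the sham pool. SOD3, the extracellular enzyme, was listed at 0 in both pools.

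NFE2L2, which encodes NRF2, and KEAP1 were within 2-fold on the log2 scale. NFE2L2 was 7.32 FPKM in injected embryos and 5.57 FPKM in sham embryos. KEAP1, the adaptor that sends NRF2 to degradation, was 29.3 FPKM in injected embryos and 46.8 FPKM in sham embryos. The ratio of KEAP1 to NFE2L2 was 4.0 in the injected pool and 8.40 in the sham pool. On the log2 scale KEAP1 was -0.66 and NFE2L2 was 0.34, but 0.005 and 0.13 after the fit on gene density. Of the textbook targets, HMOX1, which degrades heme, was 3.99 FPKM in injected embryos and 7.44 FPKM in sham embryos, and the quinone reductase gene NQO1, with a mean under 1 FPKM, was 0.707 FPKM against 0.458 FPKM. Examples of NRF2 targets among the other members went both ways. TXNRD1, GSR, GCLM and GCLC were higher and GSTP1 and PRDX1 lower in the injected pool. Of these, only TXNRD1 and GSTP1 were past 2-fold, and GCLC passed the filter through its injected value.

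The remaining members were low. Of 21 with a mean under 1 FPKM, 5 were listed at 0 in both pools, and the injected pool had the higher value for 7 and the lower value for 9. Besides GPX8, GSTM1, GSTM3, GSS, TXNRD2 and NQO1, the 10 above 0 reached at most 0.369 FPKM in injected embryos and 0.949 FPKM in sham embryos. TXNIP, the inhibitor of thioredoxin, was among them, at 0.164 FPKM in injected embryos and 0.0390 FPKM in sham embryos. Its location is shared with LOC100851451.

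A feature shared by the lower members, which the symbols did not select, was a short locus. GPX1 spans 1.17 kb on chromosome 22 of bosTau7, the authors' genome build, from 51502575 to 51503743, GPX4 2.42 kb on chromosome 7 from 42592800 to 42595221, and PRDX5 3.11 kb on chromosome 29 from 44203140 to 44206248. PRDX2 spans 3.09 kb on chromosome 7 from 10996597 to 10999685 and GSTP1 3.53 kb on chromosome 29 from 47211340 to 47214871. GSTT1, at 7.65 kb on chromosome 17 from 74380481 to 74388128, and TXN2, at 9.98 kb on chromosome 5 from 80006942 to 80016923, were longer. All 7 were under 10 kb. The higher genes were SOD1, 8.67 kb on chromosome 1 from 2902719 to 2911384, TXNDC9, 10.2 kb on chromosome 11 from 4726198 to 4736379, and TXNRD1, 63.1 kb on chromosome 5 from 72598231 to 72661367. Among 20 members under 10 kb, a limit chosen after the values were seen, 7 were at least 2-fold lower, or 35%, against 25.9% of all genes with such loci. Among 24 members of 10 kb or more, none was, against 10.9% of all genes of that length. The median log2 difference was -0.54 for the shorter members and -0.49 for all such genes, and 0.06 for the longer members and -0.03 for all genes of that length.

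**Figure D3:**
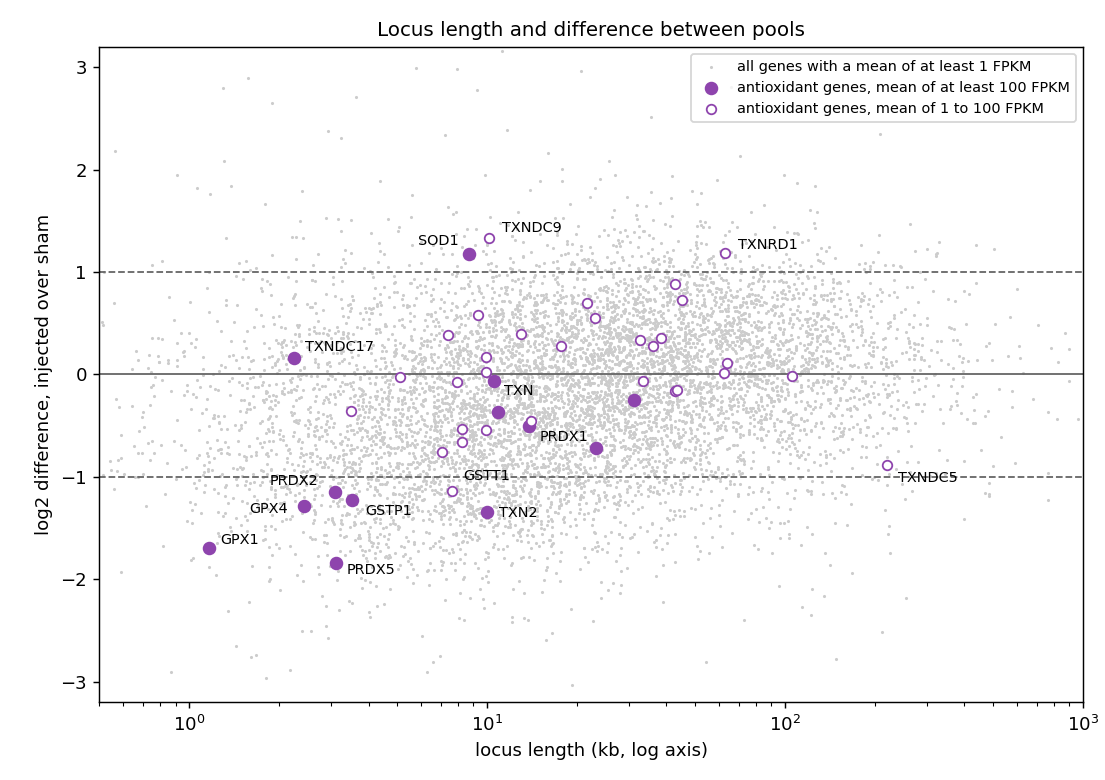
Log2 difference of injected over sham (vertical) against locus length in kb (horizontal, log axis), 1 library per pool, with points beyond the axes not drawn. Grey points are all genes averaging 1 FPKM or more, filled purple points antioxidant genes averaging 100 FPKM or more and open points those with a lower mean, and dashed lines mark 2-fold. The lower antioxidant genes sit at the left, with TXNDC17 as a short and abundant exception near 0.

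Of the 7 lower members, 6 were abundant, and GSTT1 was not. At a mean of at least 100 FPKM, likewise chosen after the values were seen, 6 of 13 members were at least 2-fold lower, against 21.0% of all 772 such genes, and 1 of 13, SOD1, was at least 2-fold higher, against 1.42%. With both limits, 6 of 8 members were at least 2-fold lower, against 24.0% of 455 genes. TXNDC17, of 2.25 kb, and SOD1 were the 2 that were not. TXN2 barely met both limits, at 9.98 kb and a mean of 101 FPKM. It met the limit on level through its sham value of 145 FPKM, against 56.7 FPKM in injected embryos. The shares under these limits are therefore not read as a result. After a loess fit on locus length the log2 difference was -1.32 for PRDX5 and -1.25 for GPX1, but -0.77 for GPX4, -0.70 for GSTP1 and -0.63 for PRDX2. The number of loci within 1 Mb moved with the difference as well, with a median of 63 for the 7 lower members and 16 for the 3 higher, beside 52 and 18 for all genes past 2-fold in each direction. After a fit on that number SOD1 was 0.99, just inside 2-fold, and GPX1 was -1.003, just past it. The part of locus length and gene density in these differences was not tested.

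PRDX2 lies next to another gene that was lower, RNASEH2A, which was picked outside the naming rule. Of all genes, 15.7% were lower by 2-fold or more, and neighbours of the other lower members are not given, so this is not read as a local pattern. RNASEH2A, a subunit of ribonuclease H2, ends 203 bases before PRDX2 starts and was 2.45 FPKM in injected embryos and 22.1 FPKM in sham embryos. Strand is not named in the protocols used here, so reads past the end of one gene cannot be told apart from those of its neighbour.

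Other genes of the pathway were taken from lists of textbook genes. For the supply of cysteine and the breakdown of glutathione, 3 of 15 genes were lower by 2-fold or more and 1 was higher by as much, and the median was -0.06 on the log2 scale. The shares were 20% lower and 6.67% higher, against 15.7% and 4.92% of all genes. With the same total FPKM there were 1 lower and 2 higher with a median of 0.27, and after the fit on gene density there were 0 and 0. SLC3A2, the heavy chain of the cystine transporter, was 3.24 FPKM in injected embryos and 10.4 FPKM in sham embryos, and DPEP1, a dipeptidase that splits cysteinylglycine, was 89.0 FPKM against 224 FPKM. HAGH, of the glyoxalase pathway, named after its value was seen, was 10.4 FPKM in injected embryos and 26.2 FPKM in sham embryos. CTH, which makes cysteine from cystathionine, was higher, at 8.26 FPKM in injected embryos and 3.27 FPKM in sham embryos. LAP3, an aminopeptidase, was 23.5 FPKM against 14.8 FPKM.

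Sources of NADPH had a median log2 difference of -0.19, with 3 of 9 genes lower by 2-fold or more and none higher by as much, against 15.7% and 4.92% of all genes. This did not hold with the same total FPKM, where the median was 0.19 with 0 lower and 1 higher, and with the median of all genes set to 0 there were 1 lower and 1 higher. TKT, of the pentose phosphate pathway, was 60.3 FPKM in injected embryos and 137 FPKM in sham embryos, and PGD, which makes NADPH there, was 25.7 FPKM against 55.0 FPKM. The folate enzyme MTHFD1, named after its value was seen, was 93.2 FPKM in injected embryos and 189 FPKM in sham embryos. IDH1, the cytosolic isocitrate dehydrogenase that makes NADPH, was 117 FPKM in injected embryos and 60.8 FPKM in sham embryos, and ME2, a mitochondrial malic enzyme, was 1.604 FPKM against 0.972 FPKM. ME2 passed the filter through its value in the injected pool.

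**Figure D4:**
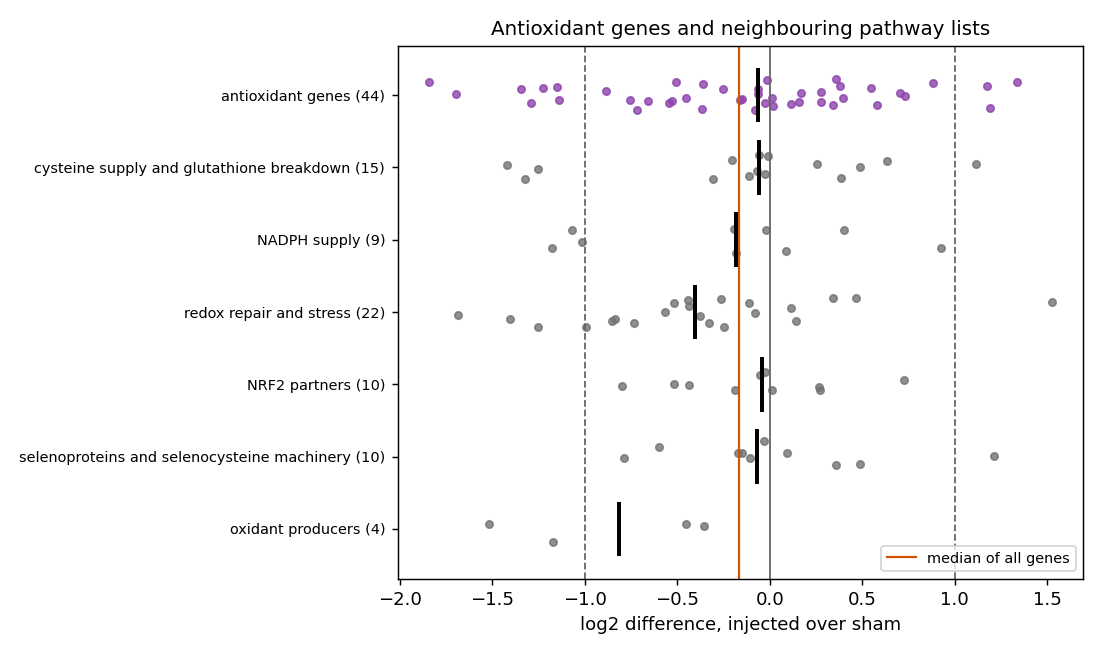
Log2 difference of injected over sham (horizontal) of the 44 antioxidant genes (purple) and of genes in 6 related lists (grey), averaging 1 FPKM or more and the number of genes in brackets, 1 library per pool. Black bars are medians, the orange line is the median of all genes at -0.17 and dashed lines mark 2-fold. The medians of the lists lie between -0.81, over the 4 oxidant producers, and -0.04, over the list labelled NRF2 partners, which also holds other genes.

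Genes of redox repair, metal binding and oxidative folding had the median -0.40 over 22 genes, with 3 lower by 2-fold or more and 1 higher by as much. The lower share was 13.6%, against 15.7% of all genes, and the median was -0.04 with the same total FPKM and -0.19 after the fit on locus length. SEPX1, a selenoprotein that repairs oxidized methionine, was 5.74 FPKM in injected embryos and 20.7 FPKM in sham embryos, and AIFM2, which protects cells from ferroptosis, was 11.6 FPKM against 32.4 FPKM. MT1E, a metallothionein named after its value was seen, was 34.5 FPKM in injected embryos and 83.7 FPKM in sham embryos. The disulfide isomerase gene PDIA4 was higher, at 91.2 FPKM in injected embryos and 31.1 FPKM in sham embryos, and SQSTM1, an autophagy receptor that binds KEAP1, was 219 FPKM against 159 FPKM.

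Of 10 genes listed around NRF2, not all of them its partners, none was past 2-fold on the log2 scale, and the median was -0.04. Of all genes, 15.7% were lower and 4.92% higher by as much. With a pseudocount of 0.1, and after either loess fit, 1 of the 10 was at least 2-fold higher. The small MAF gene MAFF was 2.10 FPKM in injected embryos and 0.876 FPKM in sham embryos, and RBX1, of the ligase that degrades NRF2, was 235 FPKM against 195 FPKM. MAFF, the highest of the list on the log2 scale, passed the filter through its value in the injected pool. The count of 1 is therefore not read as a result. The lowest were AKR1A1, an aldehyde reductase, at 28.1 FPKM in injected embryos and 49.7 FPKM in sham embryos, and the exporter gene ABCC2, at 1.37 FPKM against 2.39 FPKM.

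Other selenoproteins and the machinery that inserts selenocysteine had a median of -0.07 over 10 genes. SEPP1, the secreted selenium carrier, was 131 FPKM in injected embryos and 56.0 FPKM in sham embryos, and it alone of the 10 was past 2-fold. That is 10% higher and none lower, against 4.92% and 15.7% of all genes. SECISBP2, which recognizes selenoprotein messages, was 15.4 FPKM in injected embryos and 10.7 FPKM in sham embryos. SEPHS1 was 8.63 FPKM against 15.6 FPKM, and SEPHS2, which makes the selenium donor, was 18.2 FPKM against 28.1 FPKM. With GPX1 and GPX4 lower, and TXNRD1 and SEPP1 higher, the selenoprotein genes did not move in one direction.

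Few producers of oxidants were present. Of 18 listed genes in the files, 4 averaged 1 FPKM or more. PAOX, a polyamine oxidase, was 10.4 FPKM in injected embryos and 31.5 FPKM in sham embryos, and CYBA, a subunit of NADPH oxidases, was 0.833 FPKM against 3.13 FPKM. Both were past 2-fold lower on the log2 scale, 2 of 4 or 50%, against 15.7% of all genes. With the same total FPKM, and after either loess fit, 1 of the list was past 2-fold lower. SMOX, which oxidizes spermine, was within 2-fold, at 0.761 FPKM in injected embryos and 1.26 FPKM in sham embryos. CYBA and SMOX passed the filter through their values in the sham pool, so the direction of the genes that passed is not read as a result. AOX1, an aldehyde oxidase with a mean under 1 FPKM, was 0.923 FPKM in injected embryos and 0.551 FPKM in sham embryos.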

How the data were processed

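RNA of 1 pool of CDKN1C-siRNA-injected and 1 pool of sham-injected embryos was amplified and sequenced. The authors aligned the reads with TopHat to bosTau7, and the deposited FPKM come from Cufflinks 2.0.2, upper-quartile normalized and adjusted for sequence bias. The annotation and strand are not given in the sources used here, and the depth is unknown.

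Loci of one symbol were summed, and 615 of 22220 loci without a symbol (3.37% of FPKM in the injected pool and 3.41% in the sham pool) were left out of gene comparisons. Differences were log2 ratios after adding 1 FPKM, over genes averaging 1 FPKM or more. Differences of at least 2-fold were counted, with no test. The members and lists were chosen with earlier results of these data known. Every member with that mean was named, as were the 6 highest below it and the 2 highest and 2 lowest genes of each list. One gene under this rule is not reported here. The files count starts from 0 and 1 was added, since in the files end minus start equalled the RefSeq length for 1592 loci, and that plus 1 for 159. RefSeq (ARS-UCD2.0) served for names and lengths only, and held 62 members by symbol and 3 by synonym. The size rule, with planted 4-fold changes, and the loess fit on locus length (span 0.3) were tested on simulated data. The loess fit on gene density, with the same span, was not. Alternatives changed the pseudocount, filter, scaling, locus choice, fold, locus length and gene density. Computations used statsmodels 0.14.6, pandas 2.3.3, matplotlib 3.10.9 and NumPy 2.4.6 under Python 3.11.15.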

Additional observations from a re-analysis of the deposited data

How the results depend on the processing

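On the main scale 7 members were at least 2-fold lower and 3 higher. With both pools at the same total FPKM there were 2 and 5, against 7.48% and 11.9% of all genes. A loess fit on locus length gave 2 and 3, against 8.60% and 7.52%. A fit on the number of loci within 1 Mb gave 3 and 4, against 7.49% and 6.86%. At 4-fold there were 0 and 0, against 84 and 33 of all 7984 genes. The median log2 difference of the members was 0.10 with the median of all genes set to 0, 0.29 with the same total FPKM and 0.051 after the fit on gene density, beside 0.16 and 0.01 for all genes under the last 2. The summed FPKM of the members in the injected pool was 0.644 times that in the sham pool, and 0.848 times with the same total FPKM. PRDX5 and GPX1 were past 2-fold lower, and TXNDC9 and TXNRD1 higher, under every scaling and loess fit. GPX1 only just met this limit after the fit on gene density, at -1.003. With a pseudocount of 5 TXNRD1 was 0.90, inside 2-fold. A pseudocount of 0.1 or 5, no filter, a mean of at least 5 FPKM and the highest locus in place of the sum left both counts within 1.5 times. In an alternative chosen after the data were seen, genes whose location is shared with another symbol were left out. This gave 7 lower and 2 higher of 38 members, against 15.3% and 4.99% of all genes left. No paired analysis was possible because each group is 1 library. A shared location spans several genes, so its length is not that of the member. Depth could not be recovered from FPKM.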
